A study of Mus musculus with 4 samples.

Results

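Wnt receptors, Tcf/Lef factors and β-catenin target genes were examined in endothelial cells of blood vessels (BECs) from dermis of the mouse ear. The 9 genes were taken from a list by symbol, not by their values: the receptors *Fzd4* and *Fzd6*, the coreceptors *Lrp5* and *Lrp6*, the transcription factors *Lef1*, *Tcf7l1* and *Tcf7l2*, and the targets *Axin2* and *Apcdd1*. All 9 were found among the 46517 gene identifiers of the count tables. The question was at which level they are expressed in BECs with artery, capillary or vein markers, and how they relate to *Cldn5*, the main claudin of endothelial tight junctions, in the same cells.

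In canonical Wnt signalling a ligand joins a Frizzled receptor to Lrp5 or Lrp6, which halts the destruction complex of Axin, Apc and Gsk3 proteins. β-catenin then accumulates and works with Tcf/Lef factors on target genes, among them *Axin2* and *Apcdd1*, whose products feed back as inhibitors. In brain and retinal endothelium this pathway, driven by Wnt7 ligands or by Norrin through Fzd4, Lrp5 and Tspan12, is known to maintain the blood-tissue barrier. *Cldn5* and *Slc2a1* are turned on with it there, and *Plvap*, a gene of fenestrae and caveolae, is kept off.

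The cells came from adult wild-type female C57Bl/6 mice with no engineered allele or treatment in the labels, 12 to 26 weeks old by the labels (the methods of the study give a younger range), in pools of 6 mice. CD31+/CD45-/Lyve1- cells were sorted singly into 4 plates of 384 wells, 2 plates (A and B) for each of 2 replicates, and made into Smart-seq2 libraries, which read whole transcripts without molecular identifiers. Whether each replicate was a pool of its own is not given in the sources used here. The p-values therefore rest on these 2 replicates only, whose spread may be technical, and they borrow from the spread of other genes. The median well had 182926 (plate A) and 142086.5 (plate B) reads on genes in replicate 1, but 42539.5 (plate A) and 40324 (plate B) in replicate 2. Levels are therefore given in CPM (the reads of a gene scaled to the same total in every well), averaged over wells within each replicate, and shares of wells with a read are given after drawing 20000 reads per well. Wells with fewer than 20000 reads drop out of these shares.

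Of 1536 wells, 701 passed as BECs, 338 in replicate 1 and 363 in replicate 2. Clustering without the Wnt genes and without junction genes gave 3 clusters that carried the markers of their name, with 34 and 101 artery-like, 137 and 61 capillary-like and 123 and 90 vein-like wells in replicates 1 and 2. The artery-like cluster had 10 of 12 artery markers above its level in other wells, the capillary-like cluster 9 of 12 capillary markers and the vein-like cluster 9 of 12 vein markers. The classes were not cleanly apart. In replicate 2, artery markers summed to 2021 CPM in artery-like, 1162 CPM in capillary-like and 1141 CPM in vein-like wells. Capillary markers summed to 8540, 12554 and 8814 CPM there, and vein markers to 3117, 2424 and 8778 CPM. A further cluster of 44 and 111 wells, led by *Mmrn1*, carried 7 of 8 lymphatic, 9 of 10 mural and 5 of 6 keratinocyte markers and 3 each of the fibroblast, immune and Schwann lists, and was left unnamed. Its wells count among the kept BECs but not among the named classes. Markers of mural cells were not absent from the 3 classes: all 10 had reads in each, and their summed level was 874 to 1534 CPM in replicate 1 and 344 to 442 CPM in replicate 2, against 19529 and 14705 CPM in mural-marker wells. *Pdgfrb* and *Kcnj8*, which define mural cells, stood at 16.9 to 37.6 CPM in the classes of replicate 1 and at 1.60 to 5.45 CPM in those of replicate 2. The filter held both under 100 CPM in each kept well, as it did *Ptprc*, *Prox1* and *Lyve1*, so these low levels were set in advance. *Rgs5*, a mural marker outside the filter, stood at 259 to 1231 CPM in the classes of replicate 1 and 30.6 to 80.2 CPM in those of replicate 2. The lists of fibroblast markers (63.5 to 799 CPM) and immune markers (9.66 to 177 CPM) also had reads in each class. Lymphatic markers summed to 71.7 to 167 CPM, against 6813 and 12943 CPM in lymphatic-marker wells. The part of these cells in the levels below was not tested.

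The 9 genes spanned a wide range of levels, and all stood far below *Cldn5*. In TPM, which scales wells as CPM does after dividing by the exonic length of each gene, over wells of the 3 named classes, *Fzd6* led with 42.4 ± 1.55 TPM (mean ± SD, n = 2 replicates here and below). *Fzd4* followed with 30.1 ± 12.9 TPM, *Tcf7l2* with 29.7 ± 12.7 TPM and *Tcf7l1* with 21.8 ± 0.147 TPM. *Lrp5* stood at 17.5 ± 18.1 TPM, *Apcdd1* at 12.0 ± 9.93 TPM and *Lrp6* at 7.76 ± 0.110 TPM. *Axin2* at 3.77 ± 1.32 TPM and *Lef1* at 1.42 ± 1.55 TPM were lowest. *Cldn5* reached 2356 ± 237 TPM. Neighbours from *Fzd6* down to *Lrp6* lay within the larger SD of each pair, so the order of such neighbours does not hold beyond the spread, while *Fzd6*, *Tcf7l1* and *Lrp6*, which are not neighbours, differed from each other by more than their SDs. The gaps between *Lrp6* and *Axin2* and between *Axin2* and *Lef1* exceeded both SDs of each pair. These SDs come from 2 means over unlike mixes of the classes, and within a class the replicates could lie further apart. *Fzd6* stood at 85.1 and 52.5 TPM in artery-like wells of replicates 1 and 2, and *Tcf7l1* at 21.2 and 36.2 TPM in vein-like wells. The order is therefore a description of these wells only.

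**Figure D1:**
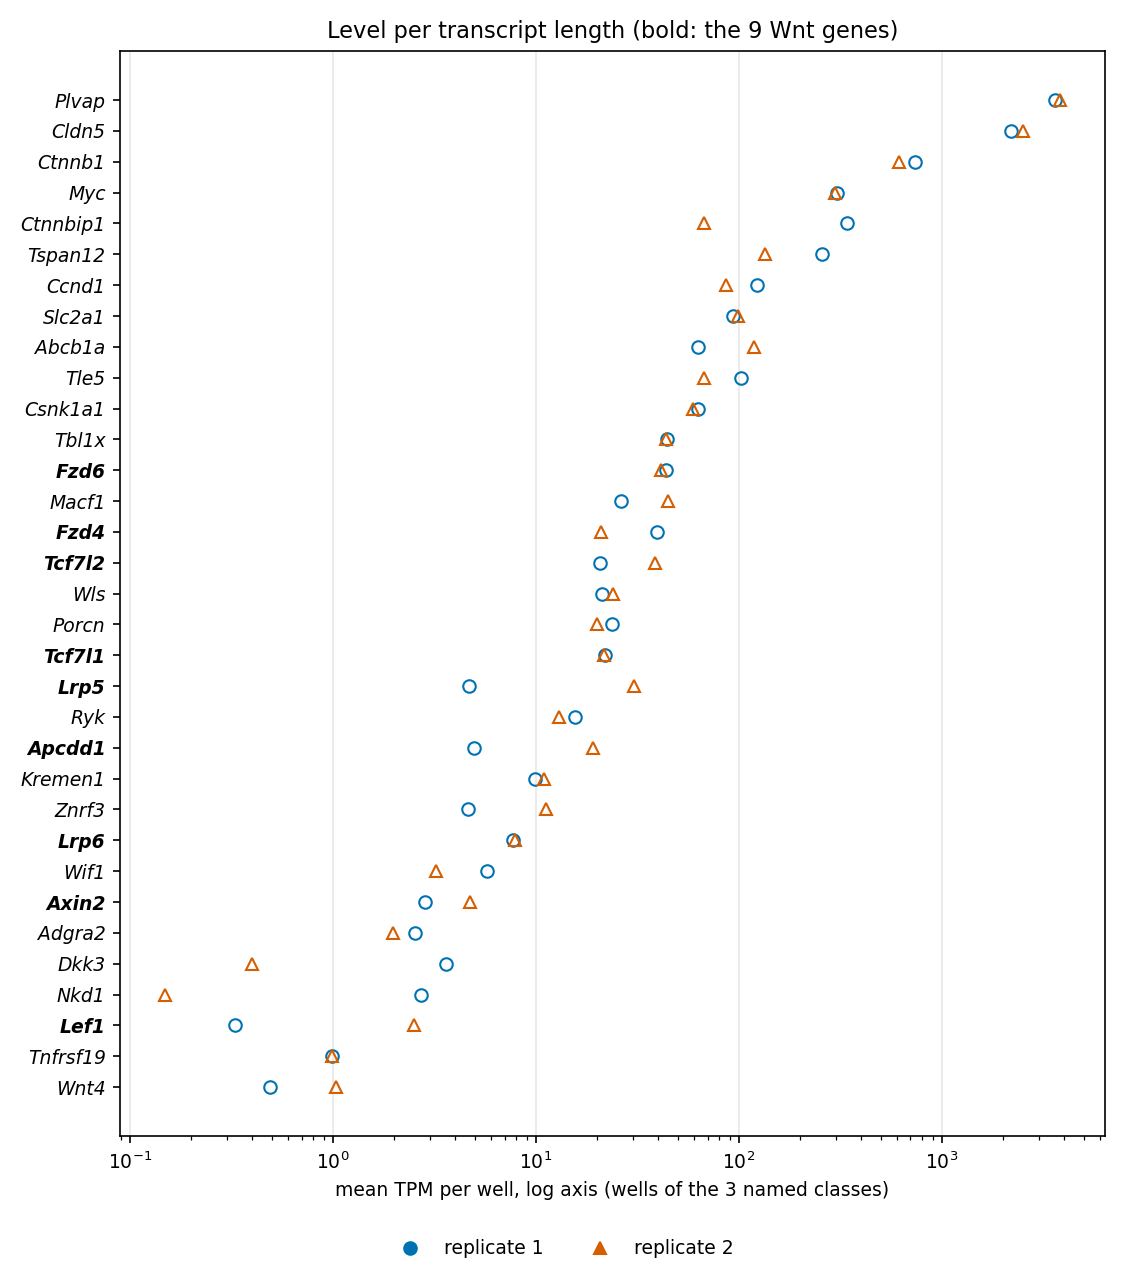
Mean TPM per well on a log axis for the 9 Wnt genes (bold), *Cldn5* and the best expressed or named genes of the wider Wnt list, over wells of the 3 named classes, with circles for replicate 1 and triangles for replicate 2. *Plvap*, *Cldn5* and *Ctnnb1* lie at the top, the Frizzled receptors and *Tcf7l2* near the middle, and *Axin2* and *Lef1* near the bottom, and the 2 replicates of *Lrp5*, *Apcdd1* and *Lef1* lie far apart.

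No member differed between the classes by the test. With edgeR's quasi-likelihood test on counts summed per replicate and class, adjusted by Benjamini-Hochberg over 15677 genes, 0 of 9 members passed an adjusted p of 0.05 in the artery-like, capillary-like or vein-like comparison with the mean of the other 2 classes. The background was as low: 0% of all genes passed in the artery-like and capillary-like comparisons and 0.00638% in the vein-like one. At an unadjusted p of 0.05 the members called were 1 in artery-like wells (*Fzd6*), 0 in capillary-like wells and 2 in vein-like wells (*Fzd6* and *Apcdd1*), beside 5.7%, 4.62% and 5.43% of all genes. DESeq2 called *Apcdd1* alone, in vein-like wells, where it called 1.59% of all genes, and 0 members in the artery-like (2.79%) and capillary-like (1.33%) comparisons. On sums per plate edgeR called 0 members in each, beside 0.136%, 0.013% and 0.136% of all genes. The median log2 fold change of the members was 0.06 in artery-like, -0.39 in capillary-like and 0.19 in vein-like wells, beside -0.07, 0.04 and 0.09 over all genes tested. The class with the highest mean CPM was the same in both replicates for 3 of 9 members (*Fzd6*, *Lrp5* and *Apcdd1*), beside 38.1% of all genes, and the lowest for 3 of 9 (*Fzd4*, *Tcf7l1* and *Axin2*), beside 36.6%.

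**Figure D2:**
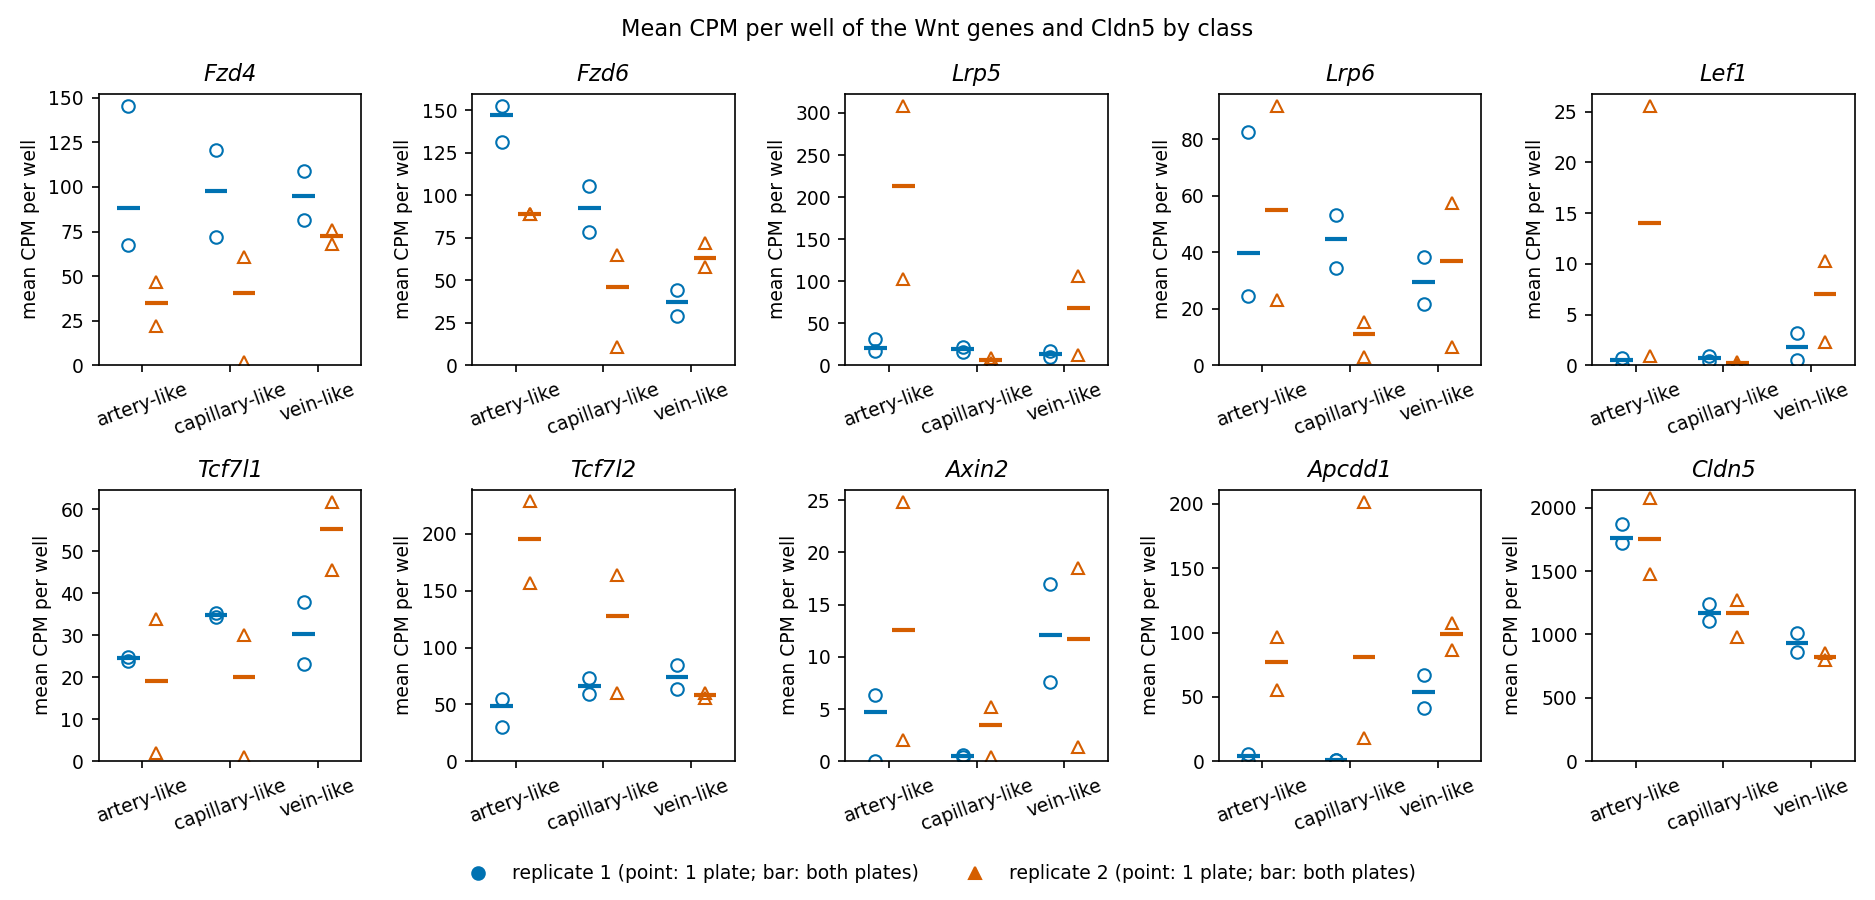
Mean CPM per well of the 9 Wnt genes and *Cldn5* in artery-like, capillary-like and vein-like wells, where a point is 1 plate and a bar the mean over the wells of both plates of a replicate (replicate 1 circles, replicate 2 triangles), each panel on its own linear axis from 0. *Cldn5* falls from artery-like to vein-like wells on every plate, while *Apcdd1* in replicate 1 lies at 53.9 CPM in vein-like wells and at most 4.16 CPM in the others, and at 77.3 to 99.1 CPM in all 3 classes in replicate 2.

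*Fzd6* (ENSMUSG00000022297, chr15:39006034-39038188 in mm10, plus strand), a Frizzled better known from planar cell polarity, had in replicates 1 and 2, respectively, 147 and 89.0 CPM in artery-like wells, 92.7 and 46.2 CPM in capillary-like wells and 36.9 and 63.3 CPM in vein-like wells. Artery-like wells were highest in both replicates, by 3.98 times over vein-like wells in replicate 1 and 1.41 times in replicate 2, and all 4 plates of artery-like wells lay above all 4 plates of vein-like wells. On the summed, TMM-scaled counts both artery-like sums lay above the other 4 and both vein-like sums below, which 6.61% and 4.71% of all genes did. No member had both capillary-like sums above or below the other 4, as 6.42% and 5.09% of all genes had. The fitted log2 fold change was 1.09 (SE 0.43) in artery-like wells, with adjusted p = 0.811 in edgeR, and -1.27 (SE 0.47) in vein-like wells, with adjusted p = 0.899. In the stricter set of wells with fewer than 10 CPM of each non-BEC gene, which held only 2 artery-like wells in replicate 1, both directions turned. With classes taken from marker scores in place of clusters the value in artery-like wells was 0.09 (adjusted p = 0.987). The share of wells with a *Fzd6* read was 32.4% (exact 95% binomial interval 17.4 to 50.5%) and 24.7% (16.4 to 34.8%) in artery-like wells, and 24.4% and 16.9% in vein-like wells. These intervals overlap.

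*Fzd4* (ENSMUSG00000049791, chr7:89404355-89413134, plus strand), the receptor of Norrin, was lowest in artery-like wells in both replicates by mean CPM, but not on the summed, TMM-scaled counts. Its level was 88.2 and 35.1 CPM in artery-like, 97.9 and 40.3 CPM in capillary-like and 94.7 and 72.7 CPM in vein-like wells. From the lowest to the highest class the level differed by 1.11 times in replicate 1 and 2.07 times in replicate 2. A read was found in 28.5 to 29.4% of thinned wells of replicate 1 and in 9.68 to 13.5% of those of replicate 2. In replicate 2, a single well held 53.5% of the artery-like and 57.2% of the capillary-like level.

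*Lrp5* (ENSMUSG00000024913, chr19:3584828-3686564, minus strand), the coreceptor of Norrin signalling, stood at 20.6, 18.8 and 13.3 CPM in artery-like, capillary-like and vein-like wells of replicate 1. In replicate 2 it stood at 213, 6.78 and 68.5 CPM. Both replicates had it highest in artery-like wells, but the size of the step was 1.54 times from highest to lowest class in one and 31.3 times in the other. A single well held 56.8% of the vein-like level of replicate 2. The share of thinned wells with a read was 14.7% in artery-like, 19.7% in capillary-like and 13.8% in vein-like wells of replicate 1, and 24.7%, 6% and 20.2% in replicate 2, so by share artery-like wells were highest in replicate 2 alone.

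*Lrp6* (ENSMUSG00000030201, chr6:134446476-134566965, minus strand), its close relative, agreed best between replicates over all classes, at 37.7 and 38.0 CPM. By class it was 39.7 and 55 CPM in artery-like, 44.5 and 11.2 CPM in capillary-like and 29.6 and 37.0 CPM in vein-like wells. The order of the classes differed between the replicates.

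**Figure D3:**
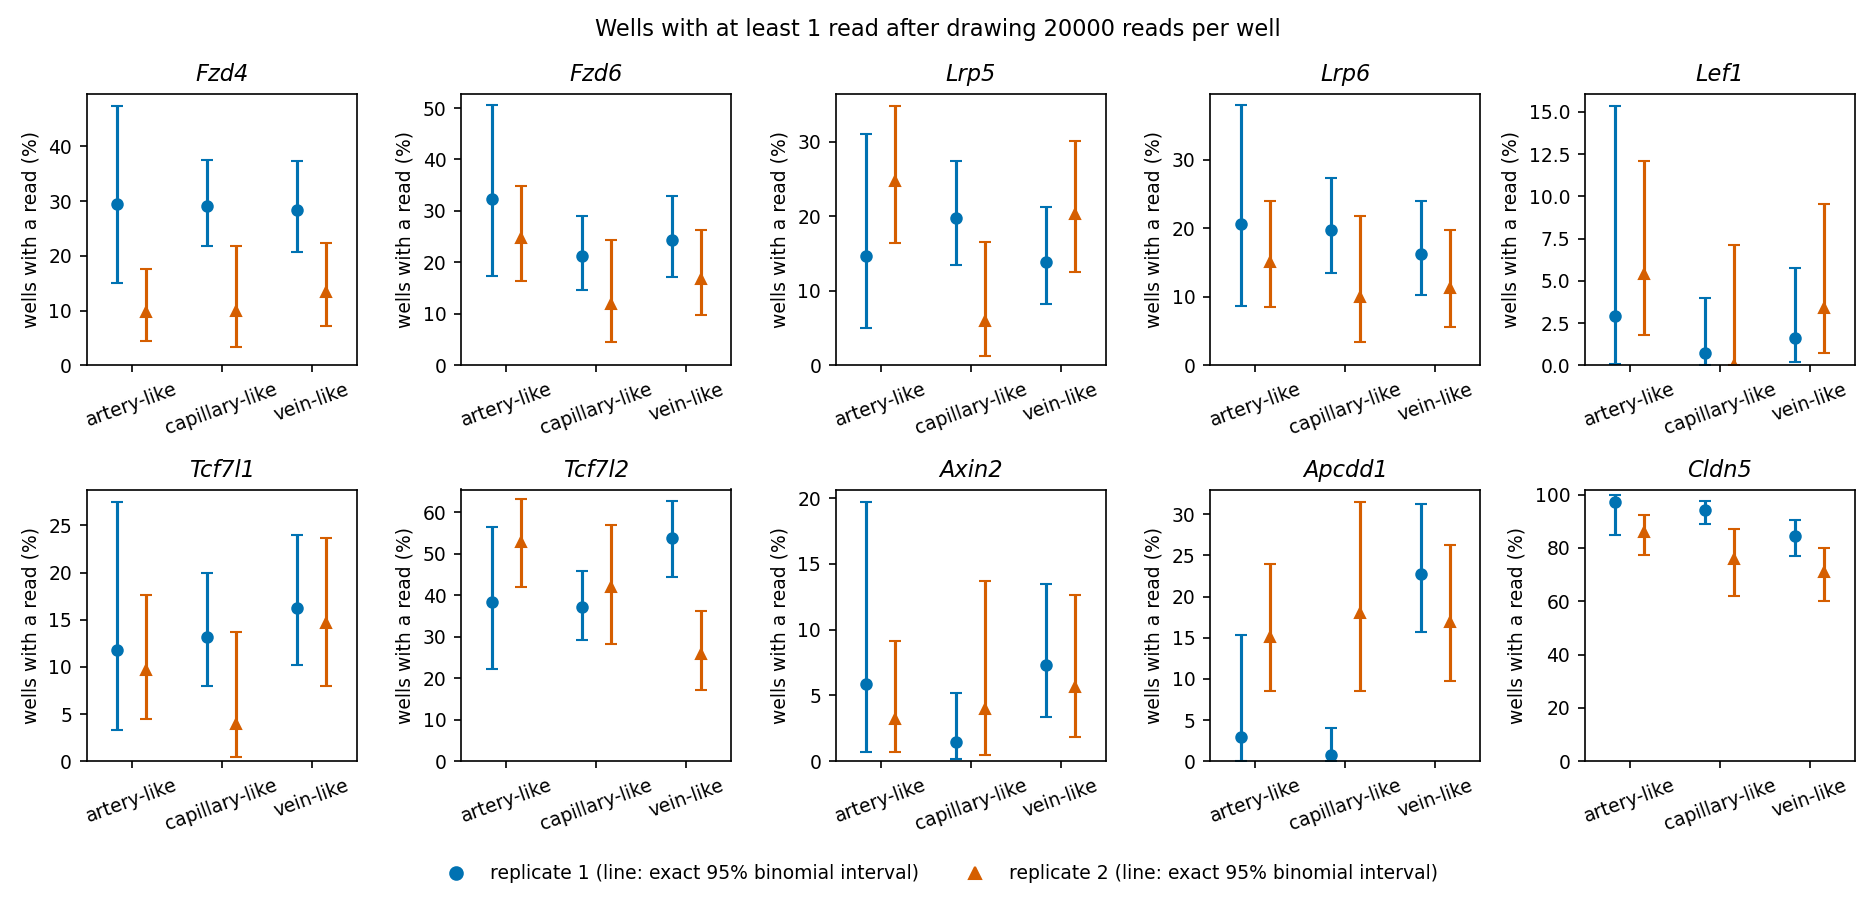
Percentage of wells with at least 1 read of each gene after 20000 reads were drawn per well, by class and replicate (replicate 1 circles, replicate 2 triangles), with exact 95% binomial intervals that cover counting error only. *Tcf7l2* was read in 25.8 to 53.7% of wells, *Axin2* and *Lef1* in at most 7.32%, and the *Apcdd1* interval of vein-like wells in replicate 1 lies above those of capillary-like and artery-like wells of that replicate.

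Of the transcription factors, *Tcf7l2* was found in many wells and *Lef1* in few. *Tcf7l2* (ENSMUSG00000024985, chr19:55741820-55933654, plus strand) was read, without thinning, in 85.7% and 61.1% of named wells of replicates 1 and 2, and at equal depth in 44.2% and 40.1%. Its level was 48.5 and 196 CPM in artery-like, 66.0 and 128 CPM in capillary-like and 73.7 and 58.5 CPM in vein-like wells. By mean CPM the replicates ran in opposite order, with vein-like wells highest in replicate 1 and lowest in replicate 2. By thinned share the vein-like wells changed place in the same way, with 53.7% (44.4 to 62.7%) of vein-like wells in replicate 1 and 25.8% (17.1 to 36.2%) in replicate 2, while artery-like and capillary-like wells stood at 38.2% and 37.2% in replicate 1 and 52.7% and 42% in replicate 2.

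*Tcf7l1* (ENSMUSG00000055799, chr6:72626378-72789254, minus strand), which mostly represses targets in the absence of β-catenin, stood at 24.6 and 19.0 CPM in artery-like, 34.8 and 20.1 CPM in capillary-like and 30.3 and 55.2 CPM in vein-like wells. Artery-like wells were lowest in both replicates, as they were on the summed counts, where both artery-like sums lay below the other 4 (8.76% of all genes did) and both vein-like sums above (7.57%). By plate the classes overlapped. One well held 81.4% of the capillary-like level in replicate 2.

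*Lef1* (ENSMUSG00000027985, chr3:131110471-131224356, plus strand), a factor present in brain endothelium with active β-catenin, was close to absent. It had 0.538, 0.692 and 1.78 CPM in artery-like, capillary-like and vein-like wells of replicate 1, from 1, 14 and 30 reads. In replicate 2 it had 14.1, 0.188 and 7.06 CPM, where 1 well made up 58.6% of the artery-like and 84.5% of the vein-like level. After thinning, 4 of 294 wells (1.36%, 0.372 to 3.45%) and 8 of 232 wells (3.45%, 1.5 to 6.68%) had a read in replicates 1 and 2. No order of classes can be read from these counts.

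The targets differed from each other. *Axin2* (ENSMUSG00000000142, chr11:108920349-108950783, plus strand), a scaffold of the destruction complex that β-catenin itself switches on, was low in all classes: 4.67 and 12.6 CPM in artery-like, 0.503 and 3.51 CPM in capillary-like and 12.1 and 11.7 CPM in vein-like wells. By mean CPM, capillary-like wells were lowest in both replicates, but on the summed, TMM-scaled counts of replicate 2 they were highest (6.55 CPM, against 6.33 CPM in artery-like and 5.72 CPM in vein-like wells). At equal depth 1.46% and 4% of capillary-like wells, 7.32% and 5.62% of vein-like wells and 5.88% and 3.23% of artery-like wells had a read, and the intervals of all 3 classes overlap. Single wells held 29.1 to 67.9% of these levels.

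*Apcdd1* (ENSMUSG00000071847, chr18:62922231-62961179, plus strand), which encodes a membrane inhibitor of Wnt signalling, had the largest ratio between its highest and lowest class among the members in replicate 1, at 64.9 times. There it stood at 53.9 CPM in vein-like wells, from 1596 reads, against 4.16 CPM in artery-like wells from 13 reads and 0.83 CPM in capillary-like wells from 21 reads. Both plates of replicate 1 had it, at 67.1 and 41.6 CPM in vein-like wells and at most 5.51 CPM in the others. At equal depth 28 of 123 vein-like wells (22.8%, 15.7 to 31.2%) had a read, against 1 of 137 capillary-like (0.730%, 0.0185 to 4.0%) and 1 of 34 artery-like wells (2.94%, 0.0744 to 15.3%). In replicate 2 the classes stood close together, at 77.3 CPM in artery-like, 81.3 CPM in capillary-like and 99.1 CPM in vein-like wells, with reads in 15.1%, 18% and 16.9% of thinned wells. There a single well held 62.3% of the artery-like and 39.1% of the capillary-like level, and the 2 plates gave 201 and 18.4 CPM in capillary-like wells. The fitted log2 fold change in vein-like wells was 3.34 (SE 1.34) with adjusted p = 0.906 in edgeR, while DESeq2 gave an adjusted p = 0.0242. Within replicates it was 5.08 in replicate 1 and 0.17 in replicate 2, each without a test, so the value rests on replicate 1. It was 0.83 without the replicate block and 0.78 with classes from marker scores. On the summed, TMM-scaled counts of replicate 2, artery-like wells stood above vein-like wells (101 and 98.4 CPM).

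*Cldn5* (ENSMUSG00000041378, chr16:18776847-18778262, plus strand) was set beside these values because the study turns on it. It stood at 1761 and 1755 CPM in artery-like, 1171 and 1168 CPM in capillary-like and 936 and 820 CPM in vein-like wells, in the same order in both replicates. By mean CPM per well none of the 9 members showed this order in both. On the summed, TMM-scaled counts *Fzd6* did, at 182, 101 and 37.0 CPM in replicate 1 and 110, 89.8 and 60.0 CPM in replicate 2. The capillary-like place of *Fzd6* in replicate 2 rested on few wells, since 1 of 61 wells held 68.0% of the mean CPM, and both plates stood at 10.9 and 64.7 CPM. *Adgra2*, a coreceptor of the wider Wnt list that was picked out after its values were seen, had the order of *Cldn5* by mean CPM at low levels, with 8.21, 5.87 and 4.53 CPM in replicate 1 and 8.93, 1.56 and 1.22 CPM in replicate 2. The fitted log2 fold change of *Cldn5* in artery-like wells was 0.94 (SE 0.19), with adjusted p = 0.811 in edgeR on sums per replicate and 0.0145 on sums per plate, whose 2 plates share a replicate. With fewer than 10 CPM of each non-BEC gene, where replicate 1 held only 2 artery-like wells, it was 2.05 (adjusted p = 0.00334 in edgeR).

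Over all kept wells of a replicate, the members were weakly related to *Cldn5* in the same well. Spearman's rho between each member and *Cldn5* over kept wells, a description over cells that share a pool, lay between -0.087 (*Lrp6*) and 0.0063 (*Fzd6*) in the 338 wells of replicate 1 and between -0.071 (*Tcf7l1*) and 0.107 (*Apcdd1*) in the 363 wells of replicate 2. The middle 90% of 10945 genes spanned -0.107 to 0.0859 and -0.0754 to 0.130 with the same gene. All members lay inside these ranges. At equal depth *Fzd6* stood just above the range in replicate 2, at 0.115 against an upper bound of 0.104, and at 0.042 in replicate 1. *Cldn5* averaged 1354 CPM in thinned wells with a *Fzd6* read and 1148 CPM in those without in replicate 1, and 1545 and 1270 CPM in replicate 2. For *Fzd4* it was 995 CPM with and 1276 CPM without in replicate 1, and 1295 and 1320 CPM in replicate 2. For *Apcdd1* it was 1137 and 1203 CPM in replicate 1 and 1530 and 1281 CPM in replicate 2, so the sign changed.

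Within single classes the values ranged more widely, over fewer wells. Those named here are among the widest, and no range over all genes was computed within a class. In the 34 artery-like wells of replicate 1, rho with *Cldn5* was -0.417 for *Lrp6* and -0.317 for *Fzd4*, against -0.070 and 0.023 in the 101 artery-like wells of replicate 2. In thinned wells the values were -0.212 and -0.289 in replicate 1, and -0.113 and 0.004 in replicate 2. At equal depth *Cldn5* averaged 914 CPM in the 7 of these replicate 1 wells with *Lrp6* and 1928 CPM in the 27 without, and 915 and 2054 CPM in the 10 with and 24 without *Fzd4*. In replicate 2 it averaged 1021 and 2016 CPM with and without *Lrp6*, and 1661 and 1888 CPM with and without *Fzd4*. For *Tcf7l1*, rho in vein-like wells was -0.232 in replicate 1 (123 wells) and -0.222 in replicate 2 (90 wells), and in capillary-like wells 0.163 and 0.181. In thinned wells the vein-like values of *Tcf7l1* were -0.164 and -0.053, and the capillary-like values 0.064 and 0.311. The last rests on 2 of 50 wells with a *Tcf7l1* read. In the 61 capillary-like wells of replicate 2 rho was 0.303 for *Lef1*, from 2 reads, and 0.283 for *Fzd6*, against 0.0065 and 0.00027 in replicate 1.

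**Figure D4:**
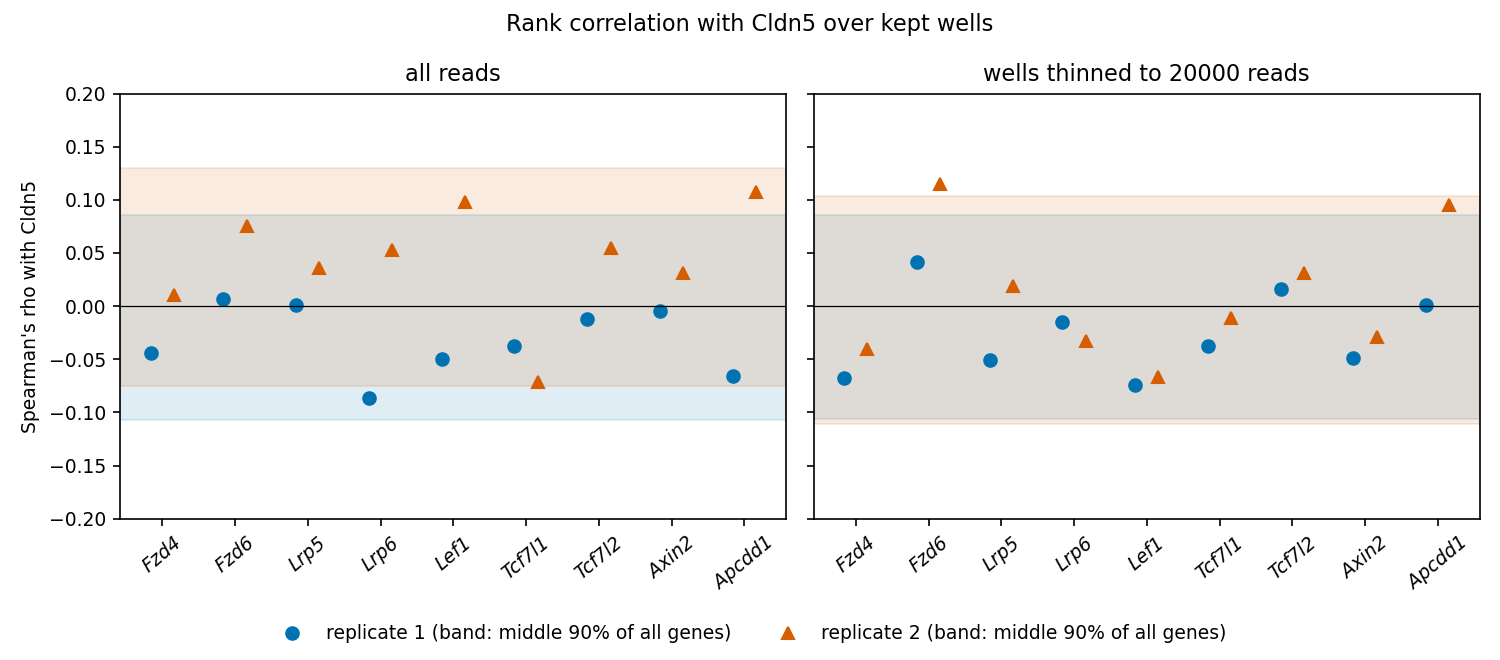
Spearman's rho of each Wnt gene with *Cldn5* over kept wells of replicate 1 (circles) and replicate 2 (triangles), from all reads on the left and from 20000 reads per well on the right, with bands for the middle 90% of all genes read in at least 5% of wells. With all reads the points lie between -0.087 and 0.107 and none leaves the band of its replicate.

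Most kept wells with a member read also had a *Cldn5* read at equal depth, as *Cldn5* was read in 89.6% and 75.5% of all thinned kept wells. Of the wells with *Fzd4*, for example, 86 of 95 had it in replicate 1 and 19 of 28 in replicate 2. Mural-marker wells held *Cldn5* reads too. Without thinning, 100% of 8 and 84.2% of 38 of them had at least 1, at a median of 34.0 and 11.4 CPM among these wells, and at equal depth 50% and 23.7% did. The source of these reads was not tested.

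The genes whose levels ran most like a member's were weakly like it. By the lower of both replicates' Spearman correlations over kept wells, from all reads, *Apcdd1* was closest to *Lrat*, at 0.236 in replicate 1 and 0.187 in replicate 2, and next to *Slc25a3* and *Cfap97*. *Lrp5* was closest to *Avpi1* (0.196 and 0.205), *Cmip* and *Mapk3*, and *Fzd4* to *Slco2a1* (0.174 and 0.169), *Fmc1* and *Eef1d*. *Slco2a1*, a prostaglandin transporter, was among the vein markers used to name the clusters. The closest genes of *Fzd6*, *Lrp6*, *Tcf7l1*, *Tcf7l2* and *Axin2* were *Sept11*, *Cpd*, *G3bp1*, *Slc39a7* and *Rpl38*, with rho from 0.152 to 0.193, and *Lef1* was left out at under 10 CPM. At equal depth many of these values dropped: *Lrp5* stood at 0.041 and 0.120 with *Avpi1* but at 0.182 and 0.132 with *Mapk3*, and *Apcdd1* at 0.302 and 0.117 with *Lrat*, higher in replicate 1 and lower in replicate 2 than from all reads.

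Mural-marker wells (at least 300 CPM of *Pdgfrb* or *Kcnj8* and fewer than 100 CPM of *Pecam1*, 8 and 38 wells) and lymphatic-marker wells (at least 300 CPM of *Prox1* or *Lyve1*, 11 and 102 wells) of the same plates show the members in other cells that passed the sort. The BECs they were compared with are all kept wells, the unnamed cluster included. In edgeR's fits on sums per replicate, a trend over all genes here took the place of each gene's own spread. Their p-values therefore do not measure how far the replicates of a gene lay apart. With edgeR, 0 of 9 members passed an adjusted p of 0.05 against either, where 2.45% of 17087 and 2.16% of 17040 genes passed. At an unadjusted p of 0.05, 2 members passed in each comparison, beside 10.8% and 12.6% of all genes. DESeq2 called 1 member in each, beside 6.45% and 5.53%, and on sums per plate edgeR called 0 against mural-marker wells, beside 1.65%. The median log2 fold change of the members, BECs over the outside wells, was 1.21 and 0.76, beside 1.04 and 0.55 over all genes.

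*Tcf7l1* stood at 245 and 98.8 CPM in mural-marker wells of replicates 1 and 2, against 37.7 and 31.1 CPM in kept BECs. Both mural values lay above every BEC class. The log2 fold change of BECs over mural-marker wells was -2.26 (SE 1.02), with adjusted p = 0.451 in edgeR, and 1 of the 8 wells of replicate 1 held 61.6% of the level. *Fzd6* had 19 reads in the 8 mural-marker wells of replicate 1 (13 CPM) and 1 read in the 38 of replicate 2 (0.0939 CPM), against 85.0 and 53.4 CPM in BECs, with adjusted p = 0.407 in edgeR and 0.0128 in DESeq2. *Fzd4* went opposite ways, at 2.72 CPM in mural-marker wells of replicate 1 and 276 CPM in those of replicate 2.

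Both targets were close to absent in lymphatic-marker wells, but not only in these. *Axin2* stood at 0 and 1.04 CPM in mural-marker wells of replicates 1 and 2. In replicate 1, capillary-like wells had 0.503 CPM of *Axin2* and 0.83 CPM of *Apcdd1*, and artery-like wells 4.16 CPM of *Apcdd1*. In lymphatic-marker wells *Apcdd1* had 2 and 7 reads in replicates 1 and 2 (1.74 and 4.41 CPM), against 21.7 and 64.7 CPM in kept BECs. Its adjusted p was 0.187 in edgeR, 0.00119 in DESeq2 and 0.0404 in edgeR on sums per plate, where 1.93% of genes passed. *Axin2* had 0 reads in the 11 wells of replicate 1 (a limit of 3 counts allows up to 27.3% of wells, and the exact 95% interval reaches 28.5%), and 2 reads in 102 wells of replicate 2 (0.264 CPM), against 10.6 and 18.4 CPM in kept BECs and 5.83 and 10.1 CPM in the named classes alone, with adjusted p = 0.338 in edgeR. *Axin2* in BECs was itself uneven, since 89.7% of its level in the unnamed cluster of replicate 1 came from 1 well. *Cldn5* was lower in mural-marker wells, at 407 and 74.8 CPM against 1195 and 1121 CPM in BECs (log2 fold change 2.83, adjusted p = 1.48e-08 in edgeR). In these wells 1 well held 85.4% of the level in replicate 1 and 1 well 51.0% in replicate 2. The difference kept its direction but missed the threshold without the replicate block (adjusted p = 0.242) and in DESeq2 (0.197) or on sums per plate (0.109). *Cldn5* was higher in lymphatic-marker wells than in kept BECs, at 3474 and 1286 CPM (log2 fold change of BECs over them -0.96, adjusted p = 0.0102 in edgeR). With each replicate normalized alone it was -0.95 in replicate 1, with 11 lymphatic-marker wells, and -0.26 in replicate 2, each without a test. In replicate 2 the named classes together stood at 1279 CPM, near the lymphatic level, and artery-like wells above it at 1755 CPM. The difference from kept BECs missed the threshold under 8 alternatives, with adjusted p from 0.0589 on sums per plate to 0.604 in DESeq2. These include the fits without the block (0.260), without the low-count filter (0.172), with the stricter non-BEC filter (0.292), on thinned wells (0.270), without plate B of replicate 1 (0.143) and without plate A of replicate 2 (0.117).

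**Figure D5:**
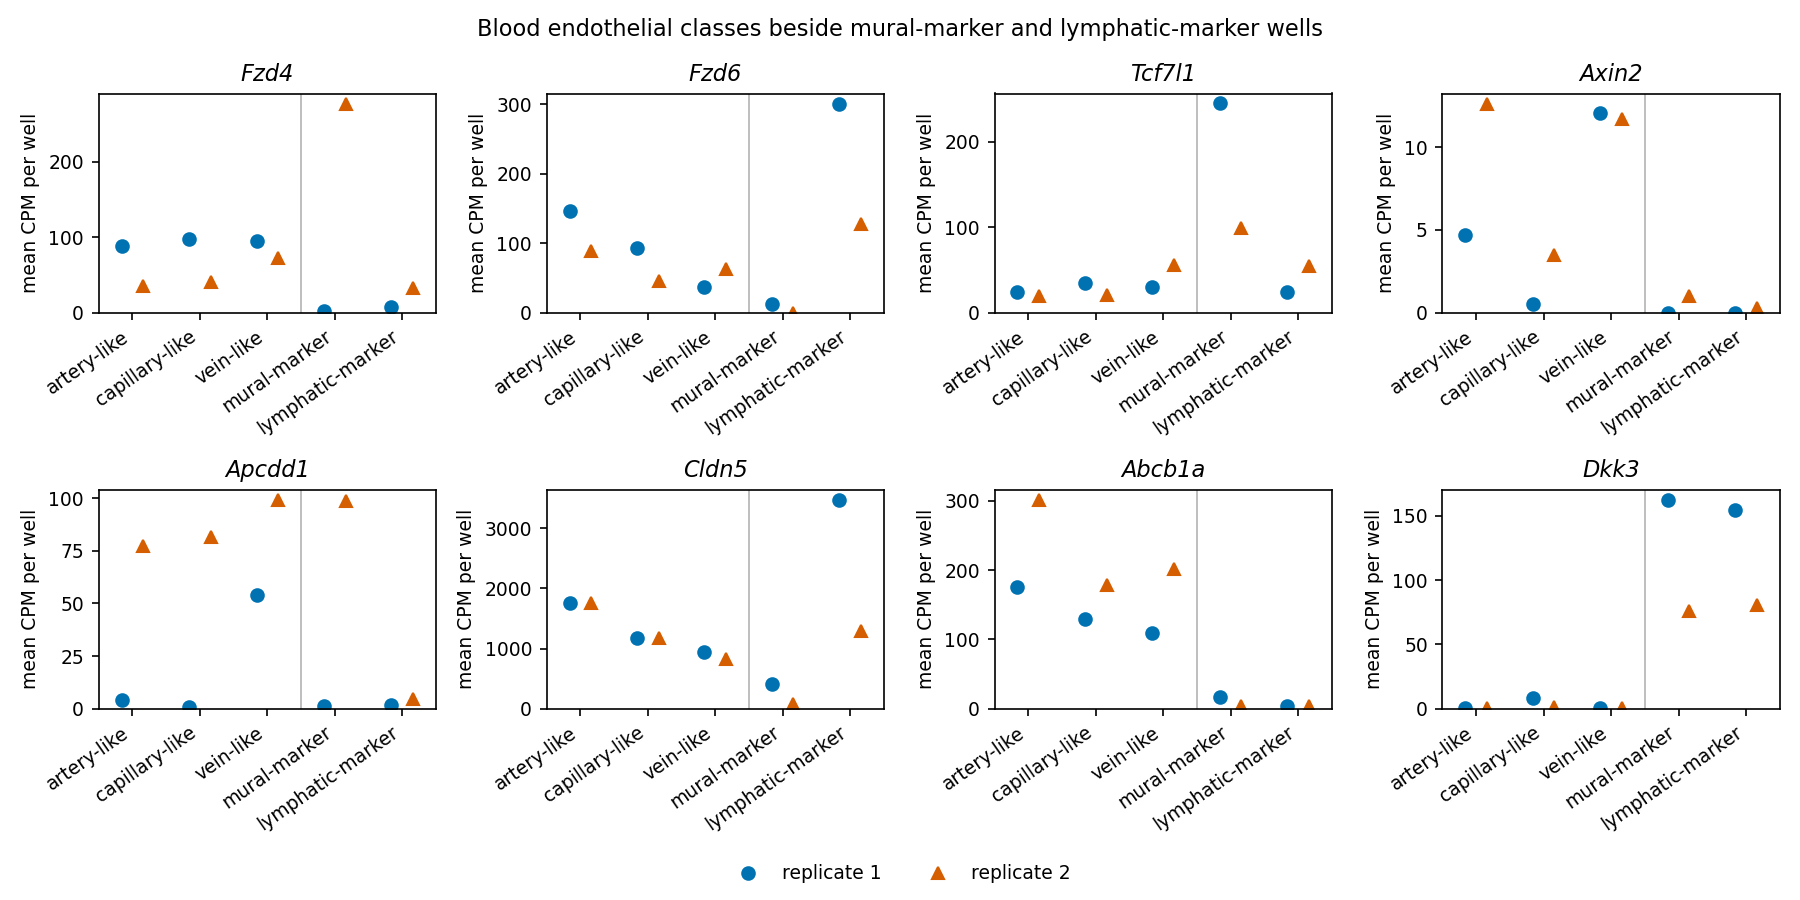
Mean CPM per well by replicate (replicate 1 circles, replicate 2 triangles) in the 3 BEC classes, left of the line, and in mural-marker and lymphatic-marker wells, right of it, each panel on its own linear axis from 0. *Abcb1a* is near 0 in both outside groups and *Dkk3* near 0 in the BEC classes, and *Tcf7l1* is highest in mural-marker wells. *Axin2* and *Apcdd1* are near 0 in lymphatic-marker wells, as *Axin2* is in mural-marker wells and both are in capillary-like wells of replicate 1.

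A wider list of 111 other Wnt pathway genes gave the setting of the members. In kept BECs 36 of the 111 reached 10 CPM in each replicate, while 5 were never read. Of 67 tested in each class comparison, 0 passed in edgeR, with 3, 6 and 2 at an unadjusted p of 0.05 in artery-like, capillary-like and vein-like wells (5.7%, 4.62% and 5.43% of all genes) and 2, 2 and 0 in DESeq2 (2.79%, 1.33% and 1.59% of all genes).

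Among other receptors, *Tspan12*, the Norrin coreceptor, stood out with 195 ± 85.1 TPM in named wells. *Ryk* had 14.2 ± 1.87 TPM, and *Adgra2*, the Wnt7 coreceptor of brain endothelium, 2.26 ± 0.405 TPM. None of the 8 other Frizzled genes reached 10 CPM in both replicates. Of 19 Wnt ligand genes, 0 reached it either, and *Wnt4*, the highest of them by CPM over all kept wells, had 0.763 ± 0.389 TPM in named wells. *Wls* (22.5 ± 2.08 TPM) and *Porcn* (21.8 ± 2.54 TPM), which release and acylate Wnt proteins, were present. Of the inhibitors, *Kremen1* (10.4 ± 0.748 TPM) and *Znrf3* (7.87 ± 4.63 TPM), which removes Frizzleds from the surface, were the best expressed by CPM over all kept wells. *Wif1* (4.46 ± 1.78 TPM) came next in those wells, at 27.6 and 9.16 CPM in replicates 1 and 2, but at 4.75 and 3.64 CPM in named wells.

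Inside the cell, *Ctnnb1*, which encodes β-catenin and also serves adherens junctions, had 673 ± 85.2 TPM. *Csnk1a1*, a kinase of the destruction complex, had 61.1 ± 2.48 TPM and *Macf1* 35.6 ± 13.2 TPM. Of this group 15 of 21 genes reached 10 CPM in both replicates. Of the nuclear cofactors 10 of 16 did, led by *Ctnnbip1*, an inhibitor of the β-catenin and Tcf contact, at 205 ± 194 TPM, *Tle5* at 84.8 ± 24.8 TPM and *Tbl1x* at 44.1 ± 0.477 TPM. The replicates of *Ctnnbip1* stood at 342 and 67.5 TPM. Of the other targets, *Myc* had 300 ± 5.33 TPM and *Ccnd1* 104 ± 25.3 TPM, both of which many other signals control, and *Tnfrsf19* 0.986 ± 0.000344 TPM. *Myc* was highest in vein-like wells in both replicates, at 596 and 510 CPM against 79.9 to 249 CPM in the other classes, with a log2 fold change of 1.51 (SE 0.60) and adjusted p = 0.904 in edgeR.

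Genes tied to β-catenin in brain endothelium were mixed. *Plvap*, off in brain capillaries, was the highest gene of the list at 3716 ± 146 TPM. *Abcb1a*, the efflux pump of the blood-brain barrier, had 90.9 ± 40 TPM and *Slc2a1*, its glucose transporter, 96.4 ± 4.27 TPM. *Slc2a1* stood at 130.2 and 138 CPM in artery-like, 53.8 and 58.0 CPM in capillary-like and 194 and 141 CPM in vein-like wells. Capillary-like wells were lowest in both replicates, with a log2 fold change of -1.47 (SE 0.37) and adjusted p = 0.980 in edgeR.

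Against the outside wells, 4 of 83 genes of the wider list passed for mural-marker wells and 3 of 85 for lymphatic-marker wells in edgeR, named here after their values were seen, beside 2.45% and 2.16% of all genes. At an unadjusted p of 0.05 the counts were 12 and 19 (10.8% and 12.6% of all genes), and in DESeq2 8 and 7 (6.45% and 5.53%). *Plvap* was higher in BECs, by 3.46 (SE 0.31) on the log2 scale over mural-marker wells (adjusted p = 1.00e-25 in edgeR) and by 2.04 (SE 0.28) over lymphatic-marker wells (adjusted p = 9.36e-11). *Abcb1a* was higher too, by 4.46 (SE 1.34, adjusted p = 0.0386) and 5.88 (SE 1.26, adjusted p = 0.000337). *Dkk3*, a secreted Dickkopf-family protein, was lower, by -5.98 (SE 1.56, adjusted p = 0.00738) and -6.43 (SE 1.23, adjusted p = 2.16e-05). *Dkk3* stood at 162 and 75.8 CPM in mural-marker, 155 and 81.0 CPM in lymphatic-marker and 5.13 and 1.41 CPM in kept BEC wells. *Nkd1*, a β-catenin target that inhibits Dishevelled, was lower than in mural-marker wells, by -4.56 (SE 1.27, adjusted p = 0.0162).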

How the data were processed

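By the submitters' processing notes and the study's methods, the authors aligned Smart-seq2 reads to mm10 with TopHat2 2.1.1, removed duplicates (SAMtools 0.1.18) and summarized them by gene (Subread 1.4.6-p5). The authors deposited these counts for each well without normalization. Removing duplicates limits high counts. The 92 spike-ins were left out. GENCODE vM21 gave symbols and exonic lengths for 46005 of 46517 identifiers.

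Wells with at least 600 counts, 500 to 8000 genes, a read of 2 of the endothelial genes *Pecam1*, *Kdr* and *Cdh5*, and *Pdgfrb*, *Kcnj8*, *Ptprc*, *Prox1* and *Lyve1* all under 100 CPM were kept. Doublets were not called. Wells were clustered (scran 1.30.0, 1000 variable genes, leidenalg 0.10.2, resolution 0.4). Counts were summed per replicate and class and tested with edgeR 4.0.16 (TMM, at least 10 counts in 2 sums, a block for replicate, leaving 2 residual degrees of freedom for classes and 1 for mural and lymphatic comparisons). The block follows the design, since classes of a replicate share its mice; same-replicate deviations correlated at 0.120, 0.137 and 0.142. The prior on the spread of each gene had 4.39 degrees of freedom for classes. It was infinite for the mural and lymphatic comparisons, where a trend over all genes took the place of each gene's own spread. DESeq2 1.42.0 was an alternative. The code was tested on simulated data.

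Named are the members, *Cldn5*, the 3 best expressed genes of each role of the wider list (by mean CPM over all kept wells) and the 3 genes most like each member by rank correlation over wells, and *Dkk3* and *Nkd1*, chosen after their values were seen. The members and lists were chosen with earlier results of these data known. Intervals cover counting error only.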

Additional observations from a re-analysis of the deposited data

Results flagged for a closer look

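Of 30 sets of 4 plates (9 genes and *Cldn5* in 3 classes), 6 had 1 plate far from the other 3. The rule is set to flag about 1 in 20 sets of 4 independent, normally spread values. Plates here come in pairs from 2 replicates of unlike depth, and single wells held much of many levels. How often chance would flag such plates was not tested, so 6 of 30 cannot show an excess over chance. All 6 are plates of replicate 2, which is shallower. In artery-like wells, *Lef1* stood at 25.5 CPM on plate B of replicate 2 and at most 0.905 CPM on the others. In capillary-like wells, plate B of replicate 2 was high for *Tcf7l2* at 164 CPM (59.4 to 73.6 CPM on the others) and for *Axin2* at 5.16 CPM (at most 0.627 CPM). Plate A of replicate 2, with 21 capillary-like wells, was low for *Tcf7l1* at 1.07 CPM (30.1 to 35.3 CPM on the others) and high for *Apcdd1* at 201 CPM (at most 18.4 CPM). In vein-like wells, *Lrp5* stood at 106 CPM on plate A of replicate 2 and at most 16.4 CPM on the others. Single wells held 37.0 to 81.4% of the levels of these genes in the same class and replicate. The causes were not tested.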

How the results depend on the processing

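Replicate 2 was sequenced less deeply, the class fit has 2 residual degrees of freedom, and single wells held much of many levels. What part each has in the number of calls was not tested. Of 153 alternatives to 11 fitted fold changes, 2 turned the direction: with fewer than 10 CPM of each non-BEC gene, *Fzd6* was -1.62 in artery-like and 2.81 in vein-like wells. The causes were not tested. Of 20 alternatives to the levels of the members and *Cldn5*, 14 stayed within 1 SD.

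The counts of all genes at an adjusted p under 0.05 moved with the tool and the block. In artery-like wells (0 genes) the count was 2 without the low-count filter, 437 in DESeq2, 9 with the stricter non-BEC filter and 21 on sums per plate, an alternative chosen after seeing the data. In capillary-like wells (0 genes) the values were 2, 208 and, per plate, 2. In vein-like wells (1 gene) they were 8 without the filter, 249 in DESeq2, 11 with the stricter filter, 21 per plate, 9 on thinned wells, 4 with classes from marker scores, 5 at the next resolution and 1 to 3 on leaving out each plate. Without the replicate block the count was 3 in vein-like wells, 29 against mural-marker wells (418 with it) and 112 against lymphatic-marker wells (368 with it), and the calls of *Cldn5* were lost in both. Against mural-marker wells DESeq2 gave 1102 and leaving out each plate 110 to 328 (110 without plate B of replicate 1). Against lymphatic-marker wells DESeq2 gave 942, the stricter filter 170 and leaving out each plate 118 to 297 (118 without plate A and 244 without plate B of replicate 1). Of the members, DESeq2 called 1 in vein-like wells, 1 against mural-marker and 1 against lymphatic-marker wells, and sums per plate 1 against lymphatic-marker wells, where edgeR on sums per replicate called 0 and 2 at an unadjusted p of 0.05. The median over members and replicates of the correlation with *Cldn5*, 0.018, was -0.085 in artery-like, 0.077 in capillary-like and -0.012 in vein-like wells alone, -0.024 on thinned wells, 0.052 without replicate 1 and -0.037 without replicate 2.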
